A study of Mus musculus with 4 samples.

Results

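The VEGF and angiopoietin system of endothelial cells (EC) was followed through 9 of the 18767 genes listed for CD31-sorted cells of the mouse aorta. These were the receptors *Kdr*, *Flt1*, *Nrp1*, *Tek* and *Tie1*, the phosphatase *Ptprb*, and the ligands *Angpt2*, *Vegfa* and *Vegfc*, taken by name. They were read in the 824 of 991 deposited cells that had more than 1200 detected genes. The cells came from 4 libraries, of which 2 carry the label Jag1 ECKO and 2 the label Jag1 ECWT. Per the study's methods, ECKO mice were Jag1 fl/fl with Cdh5 CreERT2/+, a Cre active in cells that use the VE-cadherin promoter, and the ECWT controls were Jag1 fl/fl with Cdh5 +/+. All carried the floxed allele on C57BL/6J, and all were given tamoxifen, 2 mg a day on 5 days. The methods give male mice of 1.5 to 3 months. Aortas were digested to single cells, and cells positive for CD31, negative for CD45 and excluding a dead-cell dye were sorted one by one into plates. The number of mice behind each library, and whether these mice also went through the study's atherosclerosis model, are not given in the sources used here. The study's text speaks of 4 experiments for these cells, without saying whether they used separate animals, so p-values measure the spread between these libraries, which may be technical.

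VEGF-A signals in EC through the tyrosine kinase receptor VEGFR2 (*Kdr*), with VEGFR1 (*Flt1*) as a tight-binding receptor of weak kinase activity and neuropilin 1 (*Nrp1*) as a co-receptor. The angiopoietins act on TIE2 (*Tek*), which is modulated by the related receptor TIE1 (*Tie1*) and dephosphorylated by VE-PTP (*Ptprb*), and angiopoietin 2 (*Angpt2*) is a ligand that EC make themselves. In quiescent arteries TIE2 signalling is known to maintain the endothelial barrier, while VEGF signalling through *Kdr* is best known in growing and capillary vessels.

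The promoters of *Kdr*, *Flt1* and *Tek* are shown because these receptor genes split in the data, *Kdr* and *Flt1* being found in few cells and *Tek* in most. Each sequence is the 250 bases before the start site in RefSeq (GRCm38.p6), written 5′ to 3′ on the gene's strand, with the core letters that ETS factors bind, GGAA or TTCC on the other strand, in capitals. The windows are chr5:75978456-75978705 on the minus strand for *Kdr*, chr5:147726012-147726261 on the minus strand for *Flt1*, and chr4:94739039-94739288 on the plus strand for *Tek*.
Kdr: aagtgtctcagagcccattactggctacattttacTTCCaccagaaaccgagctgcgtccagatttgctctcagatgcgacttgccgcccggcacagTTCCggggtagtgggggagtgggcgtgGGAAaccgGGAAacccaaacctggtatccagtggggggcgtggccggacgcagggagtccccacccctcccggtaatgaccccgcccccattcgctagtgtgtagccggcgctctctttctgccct
Flt1: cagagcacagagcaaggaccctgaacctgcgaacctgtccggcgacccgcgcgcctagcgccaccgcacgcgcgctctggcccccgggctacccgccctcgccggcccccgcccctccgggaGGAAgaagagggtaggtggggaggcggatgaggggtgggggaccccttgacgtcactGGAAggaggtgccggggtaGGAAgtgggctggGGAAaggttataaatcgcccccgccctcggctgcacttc
Tek: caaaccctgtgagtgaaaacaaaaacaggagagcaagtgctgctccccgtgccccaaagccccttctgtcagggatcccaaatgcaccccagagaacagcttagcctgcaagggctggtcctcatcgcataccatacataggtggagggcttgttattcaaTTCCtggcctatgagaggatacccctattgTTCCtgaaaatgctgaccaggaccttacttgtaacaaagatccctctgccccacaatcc
In GENCODE M21 (GRCm38) *Kdr* spans chr5:75932827-75978458 and *Flt1* chr5:147561604-147726011, each with 30 exons in its principal transcript. *Tek* spans chr4:94739289-94874976 and *Tie1* chr4:118471191-118490061, each with 23 exons. The start sites of the 2 annotations differ for *Kdr*, where 3 bases of the window lie inside the GENCODE gene, and for *Tie1*, where 212 do, so the *Tie1* window is not used here. None of the 9 genes shares exonic bases with another gene of the count table. The core was matched 4 times in the *Kdr* window, 4 times in that of *Flt1* and 2 times in that of *Tek*. At least 1 match was present in 93.4% of the 32851 windows of this length in the table, with a median of 3. The letters TATAAA, searched on both strands, were found in the *Flt1* window and in 12.4% of all windows, and not in those of *Kdr* and *Tek*. The GC content was 61.6% for *Kdr*, 70.4% for *Flt1* and 51.2% for *Tek*, against a median of 52.4% over all windows. These are matches of letters and no sign of binding.

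The libraries held 202 and 236 cells (Jag1 ECKO replicates 1 and 2) and 140 and 246 cells (Jag1 ECWT replicates 1 and 2) above the gene minimum, with median totals of 4212 to 6518 counts per cell. All 10 EC markers were counted in every library, at 8766 to 10127 CPM (counts of a gene scaled to a common library total of 1000000) in sum, and leukocyte markers summed to 0.984 to 7.37 CPM. Jag1 ECKO replicate 1 stood apart: its dissociation response genes summed to 7309 CPM against 5031 to 5325 in the other libraries, its smooth muscle markers to 3681 against 439 to 1667, and it supplied 28 of the 29 cells of a cluster led by dissociation genes. The targeted gene went against the labels. *Jag1*, a Notch ligand, was at 158 and 70.8 CPM in the 2 libraries carrying the ECKO label and at 32.6 and 26.1 CPM in the 2 carrying the ECWT label (log2 fold change 1.96, SE 0.37, edgeR quasi-likelihood test, adjusted p = 0.428). The floxed exons are not given in the sources used here, and counts are made near the 3′ end of a transcript. Whether a shortened transcript was still counted, and why the level was higher under the ECKO label, were not tested. The study checked the deletion in ECKO mice by qRT-PCR of endothelial RNA and by staining of the aorta, measurements that are not analysed here. Whether labels were exchanged between these libraries was not tested, and if they were, every signed difference below would turn. Groups are therefore named as the libraries were labelled. Well barcodes carry no identity of their own: 324 of 373 occur in more than 1 library, since every plate uses the same set.

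In these aortic cells *Ptprb*, *Nrp1*, *Tie1* and *Tek* were abundant, while the VEGF receptor kinases and the ligands of both families were scarce. *Ptprb*, the phosphatase of TIE2, was at 3532 CPM ± 195 (SD, n = 4 libraries) and ranked 21 of all genes by total count. *Nrp1* followed at 1277 ± 153 CPM, *Tie1* at 839 ± 134 CPM and *Tek* at 604 ± 15.2 CPM. Below these came *Vegfa* at 97.9 ± 29.5 CPM, *Flt1* at 54.1 ± 14.3 CPM, *Vegfc* at 48.4 ± 13.9 CPM, *Kdr* at 14.9 ± 8.45 CPM and *Angpt2* at 12.8 ± 4.66 CPM. Each transcript molecule is counted near its 3′ end once, so these levels do not scale with transcript length. The ranges over libraries of *Ptprb*, *Nrp1*, *Tie1* and *Tek* did not overlap each other or those of the lower genes. Among the lower genes, *Vegfa* and *Flt1*, *Vegfa* and *Vegfc*, *Flt1* and *Vegfc*, and *Kdr* and *Angpt2* overlapped, while the lowest *Vegfc* library (29.2 CPM) lay just above the highest *Kdr* library (25.6 CPM).

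**Figure D1:**
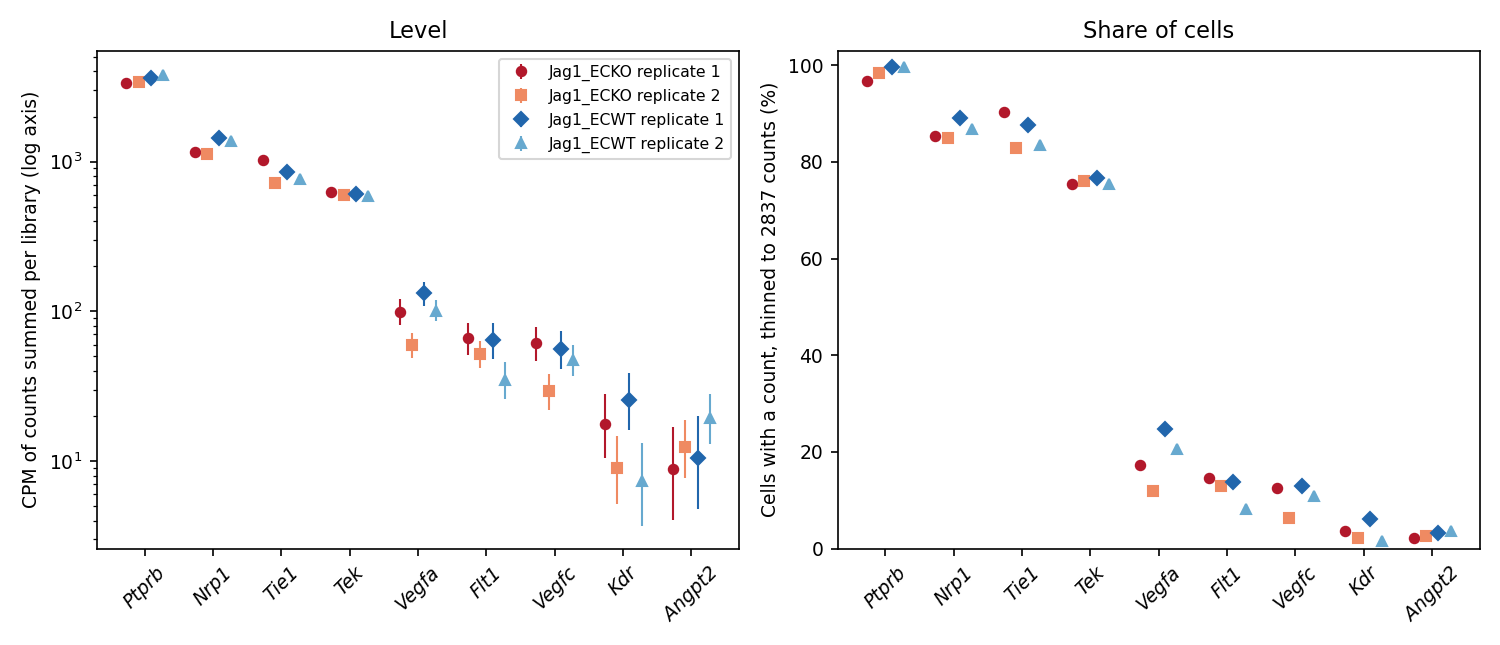
Levels (left, CPM of counts summed per library on a log axis, bars are exact Poisson 95% intervals) and shares of cells with a count after thinning to 2837 counts per cell (right) of the 9 genes in the 4 libraries. *Ptprb*, *Nrp1*, *Tie1* and *Tek* lie at 590.4 CPM or above in every library, and the other 5 genes at 132 CPM or below.

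The share of cells with a count gave the same division. With every cell thinned to 2837 counts, the 10th percentile, which left 742 cells, *Ptprb* was counted in 96.7% to 99.6% of cells per library, *Nrp1* in 85.0% to 89.1%, *Tie1* in 82.9% to 90.4% and *Tek* in 75.4% to 76.6%. *Vegfa* was counted in 11.9% to 24.8%, *Flt1* in 8.13% to 14.6%, *Vegfc* in 6.44% to 12.9%, *Kdr* in 1.68% to 6.12% and *Angpt2* in 2.12% to 3.71%. Thinning left out 36, 13, 13 and 20 cells of the 4 libraries in the order above. Without thinning, *Kdr* was counted in 41 of 824 cells (4.98%, exact binomial 95% interval 3.59 to 6.69) and *Ptprb* in 98.0% to 100% of cells per library. Intervals here and below cover counting error only.

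The spread between cells differed from gene to gene. At matched depth the variance of *Nrp1* over cells was 3.52 times its mean (median of the 4 libraries), that of *Ptprb* 2.70 times and that of *Vegfa* 1.78 times. For *Tie1* and *Tek* it was 1.48 and 1.41 times. The median was 1.22 over the 2344 genes with a mean thinned count of at least 0.2, each averaged over the libraries. That background was not matched by mean count. Mean thinned counts were 10.2 for *Ptprb*, 3.77 for *Nrp1*, 2.41 for *Tie1*, 1.78 for *Tek* and 0.27 for *Vegfa*. The ratios were therefore not compared with those of genes of like level. For the genes with a mean below 0.2, the variance was 2 times the mean for *Flt1*, 1.6 times for *Vegfc* and 1.24 times for *Kdr* and for *Angpt2*. For *Angpt2* it was 0.973 times in Jag1 ECWT replicate 1.

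*Kdr* and *Flt1* were concentrated in a small group of EC. Cells were clustered with the 9 genes removed from the variable genes, which gave 14 clusters. Clusters 10 and 13, together 49 cells or 5.95% of all, carried EC markers and the lipid-handling markers *Cd36* and *Fabp4*. *Gpihbp1*, which anchors lipoprotein lipase in capillaries, led cluster 13, and *Lrg1*, *Nr2f2* and *Nrp2* were among the leading genes of cluster 10. These lipid-handling EC-like cells held 50 of the 67 *Kdr* counts (74.6%) and 107 of the 266 *Flt1* counts (40.2%), but 4.79% of all counts. Their *Kdr* level was 203 CPM (exact Poisson 95% interval 151 to 268) against 3.67 CPM (2.14 to 5.87) in the 746 other EC-like cells, a ratio of 55.3. Without Jag1 ECKO replicate 1 the levels were 272 and 3.16 CPM, and without Jag1 ECWT replicate 1 they were 145 and 3.92 CPM, so the size of the ratio depends on single libraries. *Flt1* was at 434 CPM (356 to 525) against 33.2 CPM (28.2 to 38.9), a ratio of 13.1. The clusters were built from these same cells, so the values are a description without a test.

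The higher level was seen in every library, while the share of counts varied. The lipid-handling cells held 13 of 18, 13 of 16, 20 of 22 and 4 of 11 *Kdr* counts (72.2%, 81.2%, 90.9% and 36.4%) in Jag1 ECKO replicates 1 and 2 and Jag1 ECWT replicates 1 and 2, so in the last library most *Kdr* counts lay in other cells. For *Flt1* the share was 23.9% to 60.0%. *Kdr* was at 118, 168, 499 and 217 CPM in the lipid-handling cells of these libraries in the same order, and at 5.96, 1.92, 2.49 and 4.89 CPM in their other EC-like cells. *Flt1* was at 299, 284, 824 and 1033 CPM in the lipid-handling cells and at 40.5, 43.6, 27.4 and 21 CPM in the other EC-like cells. Every lipid-handling value thus exceeded every value of the other EC-like cells for both genes. The lipid-handling values rest on 22, 13, 11 and 3 cells, and on 13, 13, 20 and 4 counts of *Kdr*. Cluster 10 supplied 18 of the 22 cells in Jag1 ECKO replicate 1 and 9 of the 13 in replicate 2, while cluster 13, which had the higher *Flt1* level (752 against 311 CPM), supplied 8 of the 11 in Jag1 ECWT replicate 1. In Jag1 ECWT replicate 2, 2 of the 3 cells were of cluster 10 and 1 of cluster 13. At matched depth *Kdr* was counted in 44.0% of lipid-handling cells and in 0.724% of other EC-like cells, and *Flt1* in 69.4% and 8.88%.

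**Figure D2:**
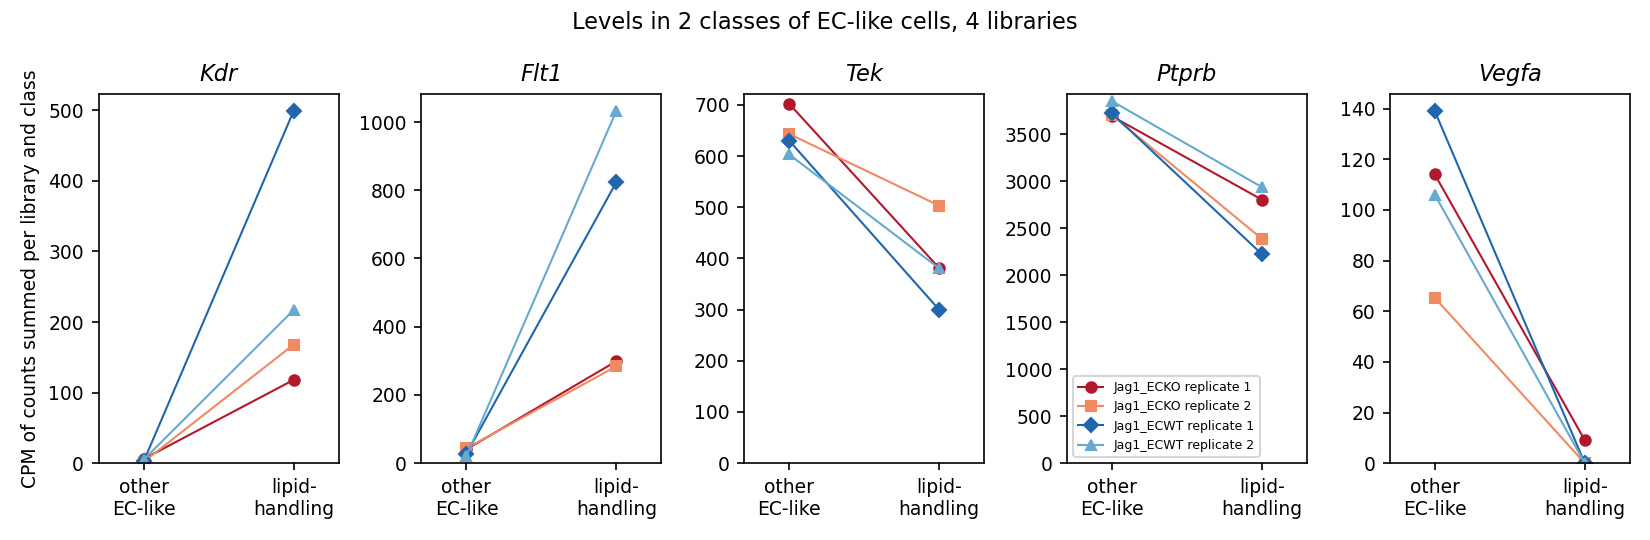
CPM of counts summed per library over the other EC-like cells and over the lipid-handling EC-like cells, for 5 of the 9 genes, 1 line per library. *Kdr* and *Flt1* are higher, and *Tek*, *Ptprb* and *Vegfa* lower, in the lipid-handling cells of all 4 libraries.

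Most of the remaining genes were lower in these cells or did not differ, and *Vegfc* was higher in the summed counts. *Vegfa* had 1 count in the 49 lipid-handling cells, or 4.06 CPM (0.103 to 22.6), against 99.5 CPM (90.6 to 109) in the other EC-like cells. *Tek* was at 406 CPM (330.4 to 494) against 639 CPM (616 to 663), and *Ptprb* at 2586 CPM (2389 to 2795) against 3748 CPM (3692 to 3804). Both were lower in the lipid-handling cells of every library: *Tek* was at 381, 503, 300 and 381 CPM there and at 702, 643, 630 and 603 CPM in the other EC-like cells. *Nrp1* was at 824 CPM (715 to 946) against 1309 CPM (1276 to 1343), and was lower in the lipid-handling cells of every library. *Tie1* was at 861 CPM (749 to 985) against 841 CPM (814 to 867), within counting error. *Vegfc* was at 102 CPM (65.7 to 149.8) against 43.4 CPM (37.6 to 49.8), but it was higher in the lipid-handling cells of 3 libraries and had 0 counts in those of Jag1 ECWT replicate 1. Of its 25 counts there, 18 came from Jag1 ECKO replicate 1, the library that stood apart, and without that library the levels were 51.5 CPM (20.7 to 106) and 41.6 CPM (35.4 to 48.7), within counting error.

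Cells with a *Kdr* count were mostly cells with a *Flt1* count. Of the 41 cells with *Kdr*, 29 (70.7%) also had *Flt1*, against 118 of the 783 cells without it (15.1%). The numbers were 8 of 11, 8 of 10, 10 of 11 and 3 of 9 in the 4 libraries. Median depths of cells with and without *Kdr* were 5136 and 5293 counts over all libraries, but 3408 and 5658 in Jag1 ECWT replicate 1 and 8076 and 5123 in Jag1 ECWT replicate 2. *Cd36*, which encodes a fatty acid transporter, was counted in 48.8% of cells with *Kdr* and 4.47% of those without. Of the lymphatic markers, *Lyve1* was counted in 7 of the 41 cells with *Kdr* (17.1%) and 39 of the 783 without (4.98%), and *Prox1*, the defining transcription factor of lymphatic EC, in 1 (2.44%) and 3 (0.383%). In cluster 10, 2 lymphatic and 4 lipid-handling markers exceeded the rest of the cells at least 3-fold (with 20 CPM added to each level).

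The other EC-like clusters differed in *Nrp1* and *Vegfa*. *Nrp1* was highest in cluster 3, led by *Sfrp2* and *Thbs1*, at 2775, 1987, 2841 and 2455 CPM in the 4 libraries, against 1164, 1129, 1437 and 1379 CPM over all their cells. It was at 585 to 647 CPM in clusters 1, 5 and 6. *Vegfa* was at 157 to 283 CPM in clusters 0, 2, 8 and 11, and at 13.7 to 37.6 CPM in clusters 1, 4, 7 and 9. Cluster 8 was at 84.6 CPM from 4 counts without Jag1 ECKO replicate 1, and cluster 4 at 56.5 CPM without Jag1 ECKO replicate 2. Cluster 11, the one led by dissociation genes, had the highest level (283 CPM) and held 40 of the 101 *Vegfa* counts of Jag1 ECKO replicate 1. The part of that cluster's dissociation genes in its *Vegfa* level was not tested. *Flt1* and *Vegfc* were both at their highest among the other EC-like clusters in clusters 1 and 8: *Flt1* at 87.4 and 93.1 CPM, and *Vegfc* at 85.5 and 58.2 CPM, with 58.1 CPM in cluster 6.

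**Figure D3:**
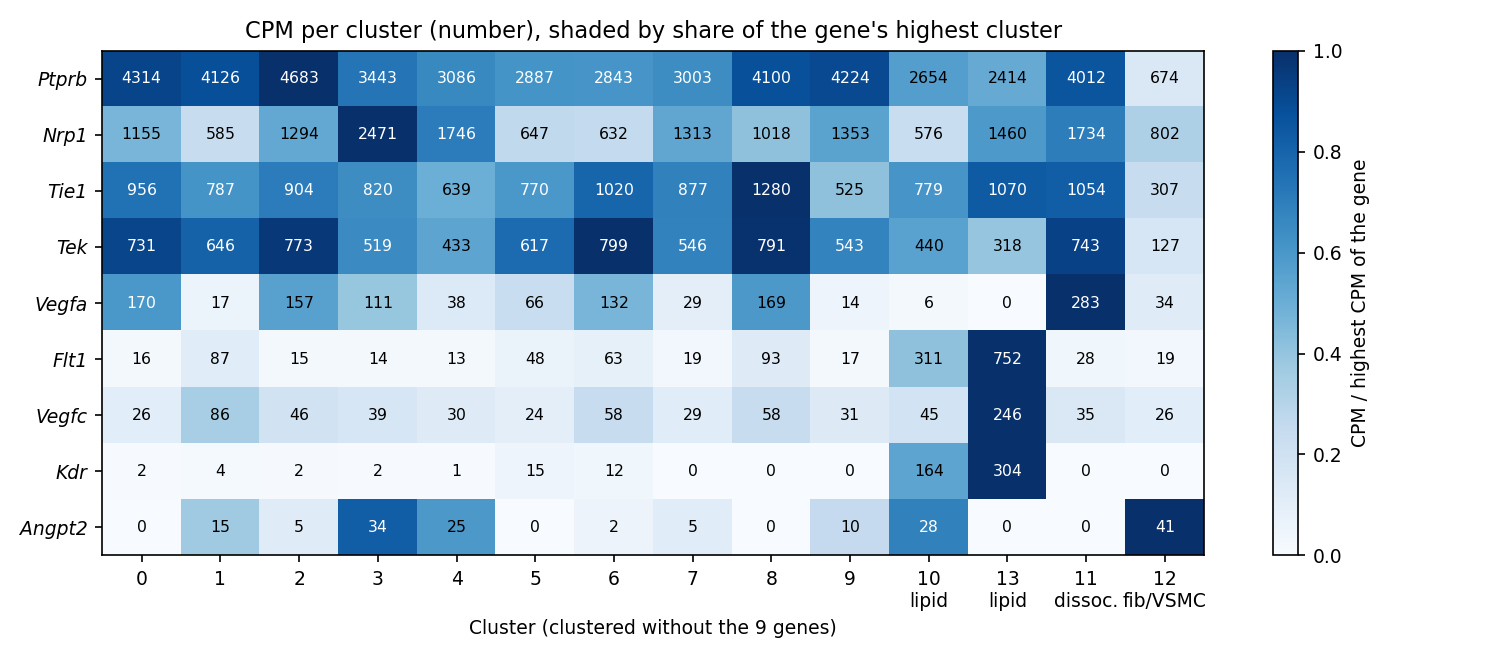
CPM of each gene in the 14 clusters, shaded by its share of the gene's highest cluster; clusters 10 and 13 are lipid-handling EC-like, 11 is led by dissociation genes and 12 is fibroblast/VSMC-like. *Kdr* and *Flt1* peak in cluster 13 (for *Kdr* not without Jag1 ECWT replicate 1, at 122 CPM against 151 CPM in cluster 10) and *Nrp1* in cluster 3, while *Ptprb*, *Tie1* and *Tek* are lowest in cluster 12.

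The 29 fibroblast/VSMC-like cells of cluster 12 are set beside the EC, but they were sorted by CD31 too and were not free of EC genes. *Ptprb* and *Tie1* were each counted in 25 of them (86.2%, without thinning). These cells were not tested for doublets. There *Kdr* was counted in 0 of 29 cells, which allows a share of up to 10.3% of cells with a count (3 of 29) but sets no limit on cells expressing it. The interval of its level there, 0 to 13.8 CPM, includes the 3.67 CPM of the other EC-like cells. *Ptprb* was at 674 CPM, *Tie1* at 307 CPM and *Tek* at 127 CPM, each below its level in every other cluster. Without Jag1 ECWT replicate 2 *Ptprb* was at 429.9 CPM there. *Nrp1* was at 802 CPM (698 to 917), with 155 of its 214 counts from Jag1 ECKO replicate 2, and at 466 CPM (355 to 602) without that library. Its place among the clusters rests on that library: with it the level lay above those of clusters 1, 5, 6 and 10, and without it below all 4. *Flt1* was counted in 13.8% of them (3.89 to 31.7) at a median of 7546 counts per cell, and in 14.3% of the other EC-like cells at a median of 5340. At 18.7 CPM (6.08 to 43.7) its level there was also not separable from the 33.2 CPM of the other EC-like cells, and without Jag1 ECWT replicate 2 it was 8.96 CPM (1.08 to 32.4) against 38.7 CPM (32.2 to 46.2). *Vegfc* was at 26.2 CPM (10.5 to 54.0) against 43.4 CPM (37.6 to 49.8), and at 47.4 CPM, from 6 counts, without Jag1 ECKO replicate 2. *Angpt2* was at 41.2 CPM (20.6 to 73.7), from 11 counts, in the fibroblast/VSMC-like cells and at 11.4 CPM (8.57 to 15.0) in the other EC-like cells. It was higher in the former in 3 libraries, and had 0 counts in the 3 such cells of Jag1 ECWT replicate 1. Among EC-like clusters it was at 33.9 CPM (20.4 to 52.9) in cluster 3 and 24.6 CPM (14.3 to 39.4) in cluster 4 (12.9 CPM without Jag1 ECWT replicate 2), and had 0 counts in the 111 cells of cluster 0. *Vegfa*, at 33.7 CPM (15.4 to 64.0), was below its level in the other EC-like cells.

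Correlations over cells within a library, at matched depth, repeated the cluster pattern for *Kdr* and *Flt1*. Their Pearson r was 0.307, 0.346, 0.560 and 0.315 in the 4 libraries (mean 0.382), the highest of the 36 pairs, whose median was -0.002. Without the lipid-handling cells the mean was 0.074. The next pair was *Tek* with *Ptprb*, receptor and phosphatase, with r of 0.259, 0.269, 0.171 and 0.201 (mean 0.225). The median r of *Tek* with 2343 other genes was 0.009. Over EC-like clusters alone the mean for *Tek* and *Ptprb* was 0.140. In all, 6 pairs were above 0 and 6 below 0 in all 4 libraries, and apart from these 2 pairs no mean exceeded 0.110. Cells of a library share its plates and its mix of clusters, and are not replicates.

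**Figure D4:**
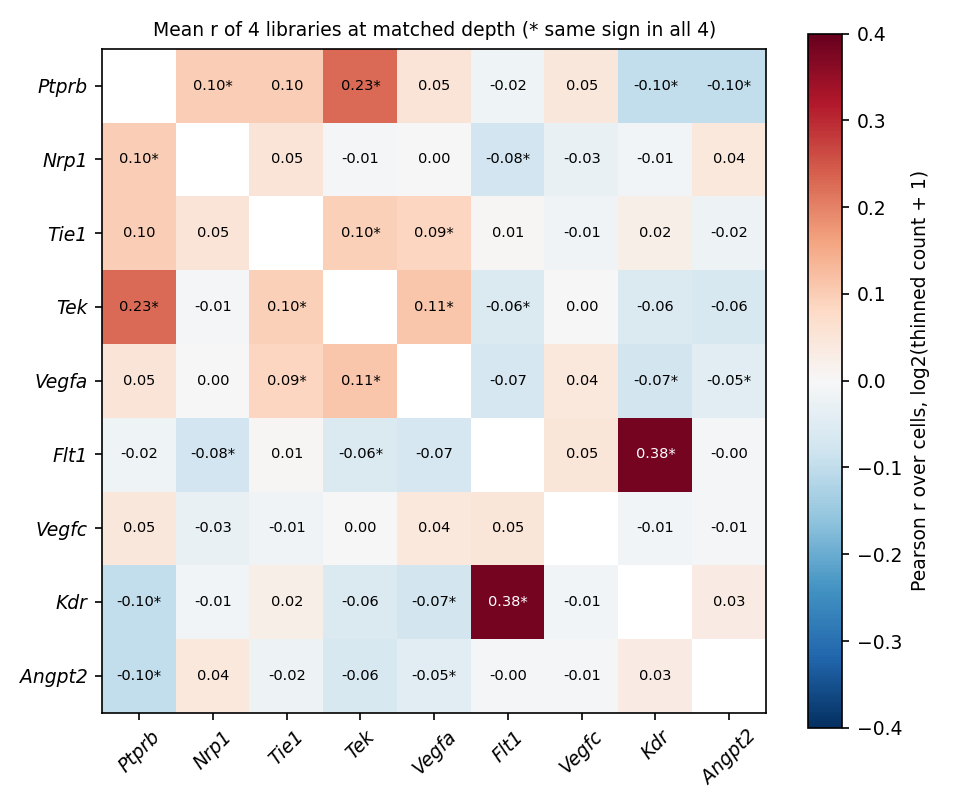
Mean over the 4 libraries of the Pearson r of each pair of genes over cells, on log2(thinned count + 1), with an asterisk where all 4 libraries had the same sign. *Kdr* with *Flt1* (0.38) and *Tek* with *Ptprb* (0.23) stand out.

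The genes most like each member, by the mean of that r, are given for the 5 members with a mean thinned count of at least 0.2. *Ptprb* went with *Vwf* (0.388), which encodes von Willebrand factor, *Pecam1* (0.380), which encodes the CD31 used in the sort, and *Fbln2* (0.267). *Tek* went with *Pecam1* (0.261), *Spon1* (0.227) and *Ptprb* (0.225), and *Tie1* with *Pecam1* (0.169), *Epas1* (0.162) and *Ramp2* (0.151). *Nrp1* went with other genes, *Bmp4* (0.354), *Apoe* (0.339) and *Tm4sf1* (0.338). *Vegfa* went with *Spon1* (0.193), *Calcrl* (0.188) and *Epas1* (0.180), the last of which encodes the hypoxia-inducible factor HIF-2alpha. Each of these was positive in all 4 libraries, over 127 to 226 thinned cells a library. Those cells include the fibroblast/VSMC-like ones, and these r were not taken over EC-like clusters alone. With EC-like clusters only, 5 of the 36 member pairs moved beyond their SD over libraries. The mean r of *Tek* with *Ptprb* went from 0.225 to 0.140, that of *Tie1* with *Ptprb* from 0.097 to 0.004, and that of *Kdr* with *Flt1* from 0.382 to 0.397.

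The comparison of the labels asked whether levels differed with the genotype that the libraries were labelled with. None of the 9 genes passed. edgeR's quasi-likelihood test on counts summed per library called 0 of 9730 genes (0%) at an adjusted p below 0.05, and DESeq2 called 0 too. At an unadjusted p below 0.05 edgeR had 465 genes (4.78%) and DESeq2 159, and 0 of the 9 genes were among the 465. In such sums, fewer cells of a type and less RNA per cell cannot be told apart. With 2 libraries a label, an exact permutation test cannot go below p = 0.333.

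*Vegfa* came nearest. It was at 99.4 and 59.6 CPM in the ECKO libraries and at 132 and 101 CPM in the ECWT libraries, so both ECKO libraries were below both ECWT libraries, the nearest 2 by little. The log2 fold change was -0.55 (SE 0.25, edgeR adjusted p = 0.90). Without the dissociation-led cluster it was -0.83 (SE 0.21, edgeR adjusted p = 0.686), and without Jag1 ECKO replicate 1 it was -0.88 (SE 0.24, edgeR adjusted p = 0.021), past the threshold. Without Jag1 ECKO replicate 2 it was -0.24 (SE 0.24, edgeR adjusted p = 0.744). In the fit without replicate 1, 196 of 10770 genes passed (1.82%), *Vegfa* being the 1 of the 9, and without replicate 2, 417 of 9851 passed (4.23%), with 0 of the 9. In each of these 2 fits the single ECKO library is assumed to vary as the ECWT libraries do.

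*Nrp1* and *Ptprb* were also lower in both ECKO libraries, by small amounts. *Nrp1* was at 1164 and 1129 against 1437 and 1379 CPM (log2 fold change -0.28, SE 0.16, edgeR adjusted p = 0.90), and *Ptprb* at 3362 and 3393 against 3591 and 3782 CPM (-0.11, SE 0.18, edgeR adjusted p = 0.96). Of all genes tested, 19.4% had both ECKO libraries below both ECWT libraries, against 3 of the 9 here, and 16.0% had both above, against 0 of the 9. *Tek* differed least, at 625 and 596 against 604 and 590.4 CPM (0.05, SE 0.16). *Tie1* was at 1024 and 722 against 847 and 761 CPM (0.13, SE 0.19), and the groups overlapped.

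For the scarce genes no difference was detected between the labels. *Kdr* was at 17.7 and 8.99 against 25.6 and 7.37 CPM, from 11 to 22 counts a library (-0.23, SE 0.61), and the 2 ECWT libraries differed beyond their counting intervals (16.0 to 38.8 and 3.68 to 13.2 CPM). *Flt1* was at 65.9 and 51.7 against 64.0 and 34.8 CPM (0.30, SE 0.30), *Vegfc* at 61.0 and 29.2 against 55.9 and 47.6 CPM (-0.23, SE 0.33), and *Angpt2* at 8.86 and 12.4 against 10.5 and 19.4 CPM (-0.49, SE 0.48). The groups overlapped for all 4. The lipid-handling cells made up 10.9% and 5.51% of cells in the ECKO libraries and 7.86% and 1.22% in the ECWT libraries. The library with the smallest share of them, Jag1 ECWT replicate 2, also had the lowest *Kdr* and *Flt1* levels. Summed lipid-handling markers were at 893 CPM in Jag1 ECKO replicate 1 and 225 to 269 CPM in the others, and their part in the label values was not tested. Without those cells the *Flt1* fold change was 0.72 (SE 0.29, edgeR adjusted p = 0.893), and *Kdr* was too low to be fitted. The paper describes clusters with markers of angiogenesis and lipid storage whose cells came mainly from control mice. Whether those clusters match the lipid-handling cells here was not tested.

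**Figure D5:**
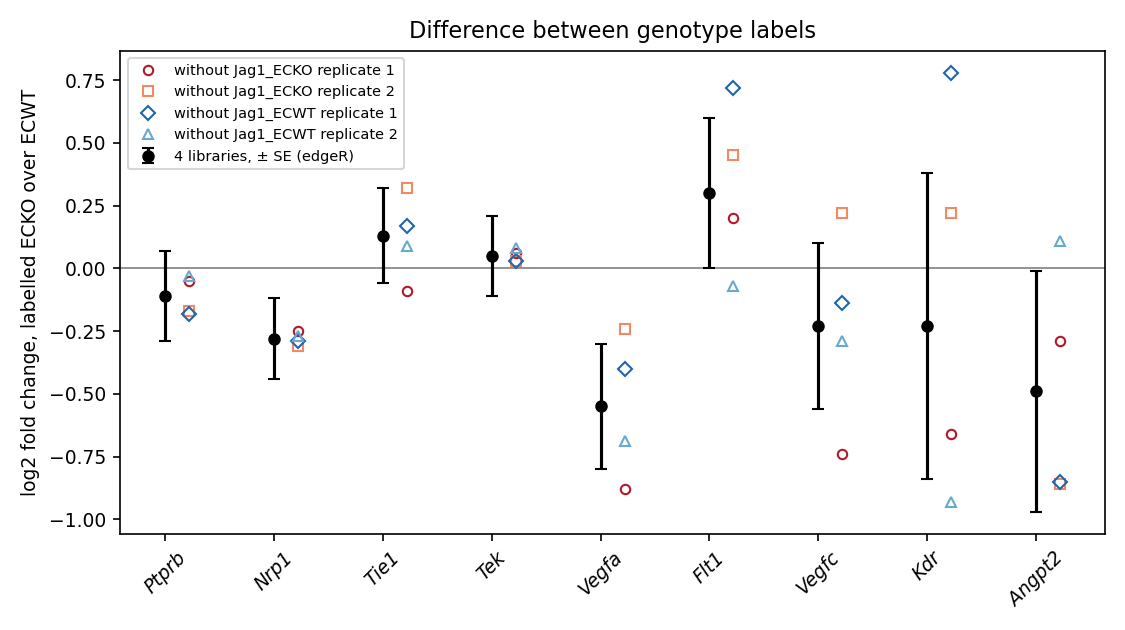
log2 fold change of the libraries labelled Jag1 ECKO over those labelled Jag1 ECWT for the 9 genes, with ± SE derived from edgeR's fold change and F statistic (black), and the value with each library left out in turn (open symbols). *Nrp1*, *Vegfa* and *Ptprb* stay below 0 and *Tek* above 0 in every fit, while the other 5 genes change sign.

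The wider pathway gave the same picture. Of 82 further genes in 5 lists (other ligands, other receptors, signalling proteins, VEGF-induced genes, and regulators), 61 were tested, 0 passed and 2 had an unadjusted p below 0.05, with a median log2 fold change of -0.01 against 0.00 over all genes. The 2 were *Itgb3*, the beta 3 integrin subunit (23.6 and 28.7 against 11.6 and 8.71 CPM, log2 fold change 1.43, SE 0.38, edgeR adjusted p = 0.90), and *Ets2*, an ETS factor (74.8 and 53.4 against 41.9 and 30.8 CPM, 0.84, SE 0.26, edgeR adjusted p = 0.90). Both were higher in both ECKO libraries. Per list, 0 of 3 tested ligands, 1 of 8 receptors, 0 of 19 signalling genes, 0 of 14 induced genes and 1 of 17 regulators had p below 0.05, against 4.78% of all genes.

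Further ligands were scarce too, and their fold changes had both signs. *Vegfb*, a ligand of VEGFR1, was at 55.1 and 33.7 against 26.8 and 30.8 CPM (0.59, SE 0.30), and *Angpt1*, the activating TIE2 ligand, at 22.6 and 21.4 against 15.1 and 12.7 CPM (0.69, SE 0.35). *Figf*, which encodes VEGF-D, was at 13.8 and 12.4 against 26.8 and 14.7 CPM (-0.60, SE 0.42). *Pgf*, another VEGFR1 ligand, had 13 counts in all and was not tested. The further receptors and co-receptors ranged from scarce to abundant, *Itgb1*, the beta 1 integrin subunit, being at 767 to 991 CPM. *Flt4*, the receptor of VEGF-C, was at 37.4 and 33.7 against 39.6 and 22.1 CPM (0.27, SE 0.32). *Nrp2*, the co-receptor of VEGF-C, was at 50.2 and 9.56 against 19.8 and 4.02 CPM (1.40, SE 0.85), and 77 of its 91 counts (84.6%) lay in the lipid-handling cells. Its size depended on single libraries: without Jag1 ECKO replicate 2, the one at 9.56 CPM, the log2 fold change was 2.25.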

How the data were processed

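SORT-seq, a plate method that counts unique molecular identifiers (UMIs), was applied to cells of 4 libraries. The values the authors deposited are estimated counts per gene and cell from reads mapped by STAR (GRCm38), that is UMIs corrected for chance repeats, not normalized; the STAR version and the counting tool are not given in the sources used here. Estimated counts were rounded and cells with more than 1200 genes kept. The 9 genes, the lists and the markers were chosen with earlier results of these data known. Sums over the cells of each library were compared by edgeR 4.0.16 (with TMM, filterByExpr, quasi-likelihood test, Benjamini-Hochberg adjustment over all genes), with DESeq2 1.42.0 as an alternative. The SE printed with edgeR fold changes were derived, as the absolute log2 fold change over the square root of the test's F statistic. CPM are summed counts scaled to a library total of 1000000. Clusters came from Seurat 5.3.0 (2000 variable genes, 12 principal components, resolution 2.3), and the thresholds for naming them were set after seeing the clusters. Lipid-handling clusters needed 3 or more such markers at 3 times their level elsewhere, after adding 20 CPM. No doublet caller was run. Correlations used 20 draws of cells thinned to 2837 counts. Named genes were the 9 genes, *Jag1*, list genes at an unadjusted p below 0.05, *Vegfb*, *Pgf*, *Flt4*, *Nrp2* and *Angpt1*, and the 3 genes most correlated with each of the 5 genes at a mean thinned count of 0.2 or more. *Figf*, *Itgb1*, *Nr4a1*, *Klf2* and the markers and leading genes named beside clusters fall outside this rule and were chosen after their values were seen. Promoters came from RefSeq, where 7 of the 9 genes had an entry. Alternatives were other cell sets, scalings, filters, depths and clusterings, and leaving out each library. The set without lipid-handling cells, and class and cluster levels without each library, were added after seeing the data. Of these steps, the edgeR test and the thinning were tried on simulated counts.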

Additional observations from a re-analysis of the deposited data

Results flagged for a closer look

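For *Flt1* the labels fell in opposite orders in the 2 classes of EC-like cells. In the lipid-handling cells both libraries labelled Jag1 ECKO (299 and 284 CPM) were below both labelled Jag1 ECWT (824 and 1033 CPM), a difference of means of -637 CPM. In the other EC-like cells both ECKO libraries (40.5 and 43.6 CPM) were above both ECWT libraries (27.4 and 21 CPM), a difference of 17.9 CPM. The difference between the classes was not tested. *Flt1* and *Angpt2* were picked from the 9 genes because their orders were opposite, and the share of all genes doing so was not counted. In the lipid-handling cells *Flt1* had 33 and 22 counts in Jag1 ECKO replicates 1 and 2. It had 33 and 19 in Jag1 ECWT replicates 1 and 2, the last from 3 cells. Cluster 10 supplied 18 of 22 and 9 of 13 lipid-handling cells of the ECKO libraries, and 3 of 11 and 2 of 3 of the ECWT libraries.

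For *Angpt2* the orders were the reverse. In the lipid-handling cells the ECKO mean was 28.4 CPM, from 2 and 3 counts, and both ECWT libraries were at 0 counts in 11 and 3 cells, a difference of 28.4 CPM. In the other EC-like cells the means were 6.27 CPM (ECKO) and 15.0 CPM (ECWT). This difference was not tested either, and so few counts carry little weight.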

How the results depend on the processing

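No paired analysis was possible because nothing pairs the libraries across labels. Signs of the 9 fold changes between labels held under the other cell sets, scalings, filters, thinning and DESeq2, except for *Kdr*, which was 0.03 with cells of more than 1000 genes and 0.16 with more than 1500. *Kdr* and *Angpt2* could not be fitted after thinning, *Kdr* without the lipid-handling cells, nor *Angpt2* with a minimum of 10 counts in every library. With no low-count filter edgeR called 127 of 18508 genes (0.686%), 0 of the 9, *Jag1* (1.97, adjusted p = 1.34e-09) and 1 list gene, *Nr4a1*. With 1 library left out, the ranges of the log2 fold change were -0.93 to 0.78 (*Kdr*), -0.07 to 0.72 (*Flt1*), -0.86 to 0.11 (*Angpt2*), -0.09 to 0.32 (*Tie1*), -0.74 to 0.22 (*Vegfc*), -0.88 to -0.24 (*Vegfa*) and 1.36 to 2.42 (*Jag1*). Genes called ranged from 0 to 417, the 9 genes called from 0 to 1, and list genes called from 0 to 3. Among these fits, calls came only without a library labelled Jag1 ECKO: without replicate 1 there were 196 of 10770 genes (1.82%), with *Vegfa*, *Jag1*, *Itgb3* and *Klf2*, and without replicate 2 there were 417 of 9851 (4.23%), with *Jag1*, *Ets2*, *Nr4a1* and *Nrp2*. Without an ECWT library 0 genes passed. The cause was not tested; each such fit rests on 3 libraries. The share of *Kdr* counts in lipid-handling cells was 74.6% in all 3 clusterings. Class levels without 1 library, chosen after seeing the data, moved by over 1.5 times for, among others, *Nrp1* in fibroblast/VSMC-like cells (802 to 466 CPM) and *Vegfc* in lipid-handling cells (102 to 51.5 CPM). For *Kdr* and *Angpt2*, comparisons rest on 67 and 69 counts in all.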

Other observations

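Of the 4 genes too scarce for the rule on like genes, *Vegfc* was most correlated at matched depth with *Col8a1*, a collagen of vessel walls (r of 0.312, 0.166, 0.173 and 0.155 in the 4 libraries), and with *Igf2* (mean 0.169), both leading genes of cluster 1. *Angpt2* was most correlated with *Ctgf*, a secreted matrix-associated protein (mean 0.190), then with the smooth muscle genes *Acta2* (0.130) and *Tagln* (0.128). *Kdr* and *Flt1* shared their 3 most correlated genes, *Cd36* (mean 0.439 and 0.431), *Fabp4* (0.422 and 0.414) and *Sparcl1* (0.331 and 0.366). For *Sparcl1* 1 library stood out, Jag1 ECWT replicate 1, with r of 0.680 and 0.722 against 0.104 to 0.363 in the others. These pairs were chosen after their values were seen. Their r were taken over all thinned cells, fibroblast/VSMC-like ones included, and not over EC-like clusters alone.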
